A study of Bos taurus with 96 samples.

Results

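The glucose transporter genes *SLC2A1* (ENSBTAG00000009617) and *SLC2A4* (ENSBTAG00000009190) were followed from late pregnancy to mid lactation in the liver and the semitendinosus muscle of dairy cows. They were chosen by identifier and are 2 of the 24616 genes counted. Reads were counted for both genes in all 96 RNA-seq libraries, and both were among the genes tested in every comparison. The question was how the mRNA of each transporter changed within a cow around calving, in which tissue, and whether the change differed between cows of good and poor genetic merit for fertility.

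The libraries came from 16 Holstein cows managed as a single herd, each biopsied in both tissues at late pregnancy (LP), early lactation (EL, about the day after calving) and mid lactation (ML). Of these cows, 8 were of good genetic merit for calving interval (Fert+) and 8 of poor merit (Fert-). The genotypes are breeding values chosen from the extremes of a national herd, not single alleles, and no treatment or transgene was applied. Both groups mixed cows of first and later parity, ages were not given in the labels, and none of the cows was bred again in the lactation sampled. Each group of one tissue, time-point and genotype held 8 libraries, 1 for each cow.

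Total counts ranged from 15279337 to 22018740 read pairs per muscle library (median 17612182) and from 14966847 to 26358063 per liver library (median 20466943). A set of 13 libraries, called counting batch B here, had counts of 3 or more at 16 or more of 19 genes, and the other 83 libraries at no more than 7 of them. They were 5 muscle libraries, all of Fert- cows, and 8 liver libraries, 6 of them of Fert+ cows. The 19 genes were picked for a median count of 2 or less and a highest count of 50 or more in each tissue. That some libraries stand high at them follows from this choice. The name is only a label here, since the sample labels give no batch and the source of the difference is not known. Levels are given as CPM, a gene's counted read pairs scaled to a common library total. That total was first adjusted by a TMM factor for differences in make-up between libraries. CPM does not use gene length, so the level of *SLC2A1* is not compared with that of *SLC2A4*. In bulk tissue, fewer cells of a type and less RNA per cell cannot be told apart.

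*SLC2A4* encodes GLUT4, the insulin-responsive glucose transporter of skeletal muscle, heart and fat. GLUT4 is held in vesicles inside the cell and moves to the cell surface on insulin or contraction, so its mRNA level is not a measure of glucose uptake. *SLC2A1* encodes GLUT1, a transporter found in most cells, which supplies glucose at rest and does not depend on insulin. Hepatocytes release and take up glucose mainly through another family member, GLUT2. Around calving the mammary gland takes a large part of the glucose a dairy cow makes, and muscle of the newly calved cow is known to respond less to insulin.

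In muscle, *SLC2A4* was highest at ML and most uneven at EL. Across 16 cows its level at LP ran from 60.3 to 135 CPM with a median of 87.9 (mean 88.8 ± 19.7 SD). At EL it ran from 16.6 to 212 CPM with a median of 56.6 (mean 80.9 ± 58.6). At ML it ran from 95.6 to 182 CPM with a median of 151.6 (mean 148 ± 25.1). The LP and ML ranges overlapped, with 4 ML libraries below the highest LP library, whereas the EL cows reached below all LP levels and above all ML levels.

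Within cows, *SLC2A4* rose from LP to ML by a log2 fold change of 0.76 (SE 0.20, adjusted p = 0.0114, edgeR quasi-likelihood test), which is 1.70-fold. Of all genes tested in that comparison, 9.1% passed the threshold, 4.17% upwards and 4.93% downwards. The ML level was the higher in 15 of 16 cows, and the exact sign-flip permutation test gave p = 6.1e-05 (adjusted p = 0.000732 over 12 such tests of these genes). In the cow that did not rise (Fert- cow 996) the ML level was 0.953 of the LP level.

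From EL to ML *SLC2A4* rose by 1.12 (SE 0.20, adjusted p = 1.53e-05, edgeR), or 2.18-fold, against a background in which 63.7% of genes changed, 31.7% upwards and 31.9% downwards. The rise was seen in 12 of 16 cows (exact permutation p = 0.000488, adjusted p = 0.00293), and in 9 of them it exceeded 2-fold. The ratio of ML to EL ran from 0.832 to 7.52 among the cows. From LP to EL the log2 fold change was -0.36 (SE 0.20, adjusted p = 0.123, edgeR) and did not pass, in a comparison in which 58.3% of all genes did, 30.4% upwards and 27.9% downwards. The EL level was below the LP level in 11 of 16 cows (exact permutation p = 0.0715), and the cow ratios ran from 0.270 to 2.66. One cow decided this call, since without cow 782 the change was -0.49 (adjusted p = 0.0271, edgeR). In order of level ML came first, and LP and EL were not separated by the test over all cows. Over all time-points together *SLC2A4* passed (adjusted p = 2.93e-05, edgeR), as did 67.8% of genes.

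**Figure D1:**
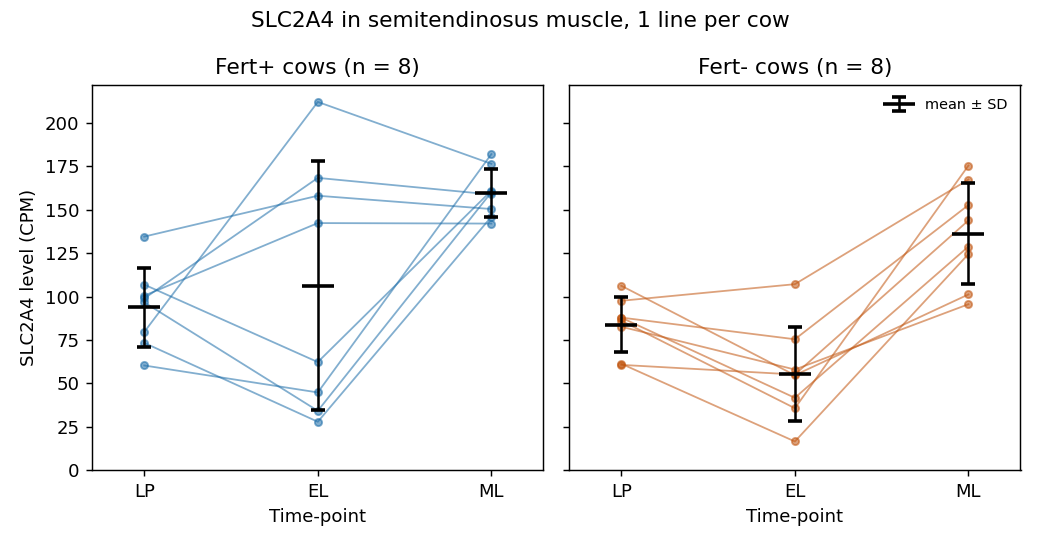
*SLC2A4* level in muscle (CPM, vertical axis) at LP, EL and ML, with 1 line for each of the 8 Fert+ cows (left) and the 8 Fert- cows (right). Black bars are the mean ± SD. At EL the Fert+ cows fall into levels of 142 to 212 CPM and of 27.9 to 62.3 CPM, and at ML all 16 cows lie between 95.6 and 182 CPM.

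The spread of *SLC2A4* between cows was widest at EL. The SD of log2(CPM + 1) over the 16 cows came to 0.32 (LP), 1.02 (EL) and 0.27 (ML). At EL it was larger than that of 98.9% of the 12304 muscle genes tested, compared with 76.2% at LP and 73.4% at ML. For the median gene these SDs were 0.24, 0.30 and 0.21.

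At EL the Fert+ cows covered the wider range. In 4 of them *SLC2A4* stood at 142 (cow 3847), 158 (cow 430), 168 (cow 756) and 212 CPM (cow 782), each above that cow's own LP level. In the other 4 it stood at 27.9 (cow 3434), 34.2 (cow 3397), 44.8 (cow 3445) and 62.3 CPM (cow 33), each below the LP level. The Fert- cows lay between 16.6 and 107 CPM at EL with a median of 54.95, and 7 of 8 were below their LP level (exact permutation p = 0.0156 among the Fert- cows, adjusted p = 0.0469). From EL to ML the gene rose in 8 of 8 Fert- cows and in 4 of 8 Fert+ cows.

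Between genotypes, *SLC2A4* in muscle at EL averaged 106 ± 71.8 CPM for the 8 Fert+ animals against 55.6 ± 27.2 CPM for the 8 Fert- animals, and the groups overlapped. The log2 difference of Fert+ from Fert- was 0.93 (SE 0.43) with a raw p of 0.0432 and an adjusted p of 0.408 in edgeR's quasi-likelihood test, where 0.00831% of genes passed, all upwards. The exact permutation test over the 8 and 8 cows gave p = 0.155. With a dispersion shared by all genes, the setting named in the study's methods, edgeR's exact test gave an adjusted p of 0.00201 and 3.64% of genes passed. Both transporter genes stand in the study's own list for muscle at EL, which was made from these same libraries, so that call is not independent evidence of a direction.

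At ML the Fert+ cows had 142 to 182 CPM of *SLC2A4* (median 159) and the Fert- cows 95.6 to 176 CPM (median 136). All 8 Fert+ cows lay above the Fert- median, but the groups overlapped. The difference was 0.23 (SE 0.11, raw p = 0.0538, adjusted p = 0.654, edgeR, where 0.0% of genes passed) and the exact permutation p was 0.0550. At LP it was 0.16 (SE 0.15, adjusted p = 0.871, 0.0% of genes passed). With the shared dispersion it passed at neither LP nor ML, where 1.79% and 1.78% of genes did. The genotype by time-point interaction of *SLC2A4* did not pass either (adjusted p = 0.751 for any difference, 0.0% of genes passed). The 95% interval of the interaction from LP to EL ran from -0.10 to 1.43 on the log2 scale.

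*SLC2A1* was counted at a low level in muscle, with 15 to 202 read pairs per library. Its level at LP ran from 1.03 to 4.37 CPM with a median of 2.73 (mean 2.64 ± 0.894). At EL it ran from 1.15 to 11.96 CPM with a median of 2.35 (mean 3.61 ± 2.84), and at ML from 2.09 to 6.08 CPM with a median of 3.13 (mean 3.32 ± 1.17). The levels of the 3 time-points overlapped widely, with the highest levels at EL.

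No time contrast of *SLC2A1* in muscle passed in the fit across all genes. The log2 fold change was 0.30 from LP to EL (SE 0.19, adjusted p = 0.188), 0.05 from EL to ML (SE 0.19, adjusted p = 0.820) and 0.35 from LP to ML (SE 0.19, adjusted p = 0.272). In the test of the single gene over cows, the ML level exceeded the LP level in 13 of 16 cows (exact sign-flip permutation p = 0.0150, adjusted p = 0.0451 over 12 tests), with a mean difference of 0.25 on the log2(CPM + 1) scale. That scale understates changes of a gene at so low a level.

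From LP to EL *SLC2A1* was higher at EL in 6 of 8 Fert+ cows and lower in 6 of 8 Fert- cows, a difference that did not pass the adjusted threshold. At EL the Fert+ cows had 1.22 to 11.96 CPM (median 3.55) and the Fert- cows 1.15 to 5.76 CPM (median 2.23). The interaction was 0.97 from LP to EL (SE 0.34, adjusted p = 0.264, edgeR, where 0.0163% of genes passed) and -1.02 from EL to ML (SE 0.34, adjusted p = 0.327, where 0.0% of genes passed). The exact permutation test of the difference between genotypes gave p = 0.0357 and p = 0.0368 for these changes (adjusted p = 0.147 for both over 8 tests). The level at EL differed by 0.83 (SE 0.42, adjusted p = 0.447, edgeR quasi-likelihood test), and the shared-dispersion exact test of edgeR gave an adjusted p of 0.0191.

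**Figure D2:**
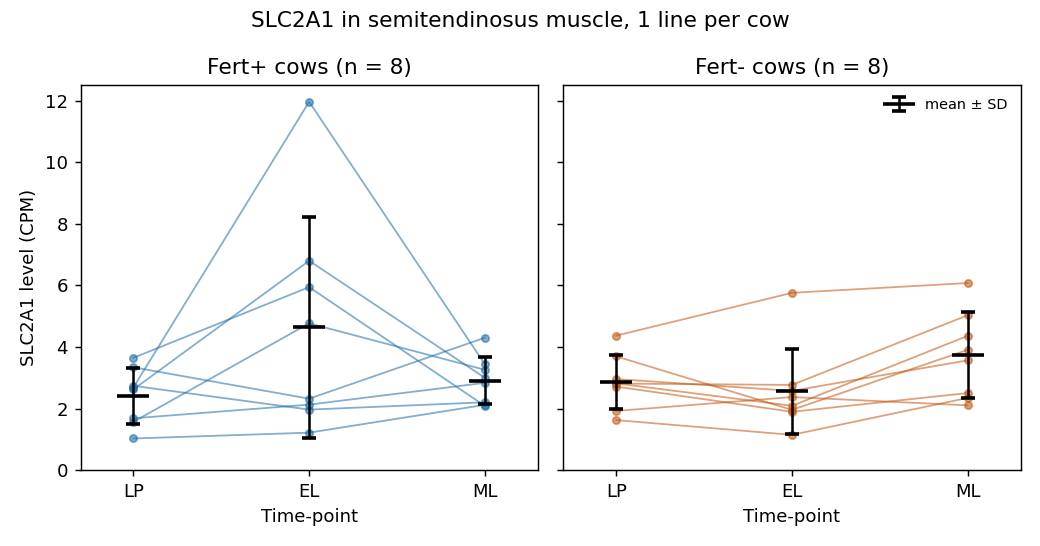
*SLC2A1* level in muscle (CPM, vertical axis) at LP, EL and ML, with 1 line for each of the 8 Fert+ cows (left) and the 8 Fert- cows (right) and the mean ± SD in black. At EL, 4 Fert+ cows stand between 4.77 and 11.96 CPM, and the remaining Fert+ cows lie at 2.32 CPM or less.

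The Fert+ cows with high *SLC2A4* at EL were also those with high *SLC2A1*. In cows 3847, 430, 756 and 782 the *SLC2A1* level at EL was 4.77, 6.80, 11.96 and 5.94 CPM, and in the other 4 Fert+ cows it was 1.22 to 2.32 CPM. The highest Fert- cow for *SLC2A1* (cow 426, 5.76 CPM) had only 35.7 CPM of *SLC2A4*. Over all 16 cows at EL the levels of the genes correlated with Pearson's r = 0.61 (permutation p = 0.0123) and Spearman's rho = 0.44 (permutation p = 0.0867), but neither passed after adjustment over 14 relations (adjusted p = 0.0858 for r and 0.405 for rho). Within the Fert+ cows r was 0.91 and within the Fert- cows -0.40, and the difference between these was not tested. Without the cows farthest from the median of *SLC2A4*, 2 in number, r was 0.63, and within the 14 cows not of counting batch B it was 0.66. At LP r was -0.17 and at ML 0.24 (adjusted permutation p = 0.606 for both).

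The muscle libraries at EL also held a smaller share of contractile transcripts. The summed level of 8 skeletal muscle fibre markers (among them *ACTA1*, *CKM*, *TTN* and the fast myosins) ran from 138923 to 221950 CPM at LP, from 31770 to 203329 CPM at EL and from 196782 to 267512 CPM at ML, with medians of 198130, 78923 and 224490 CPM. From LP to EL 7 of the 8 markers fell in edgeR, with a median log2 fold change of -1.08 compared with 0.01 over all genes, and the sum fell in 15 of 16 cows. The marker that did not fall was *DES* (0.06, SE 0.08, adjusted p = 0.511, edgeR). The 6 fast fibre markers, which share *MYH1*, *MYH2* and *TNNC2* with these 8, and the 5 identifiers of the slow fibre markers also fell. In cow 430 the sum of the 8 markers was higher at EL than at LP, and this was one of the 4 Fert+ cows with high *SLC2A4*. In cows 756, 782 and 3847, also of those 4, the sum fell while *SLC2A4* rose. It went from 215379 to 125502 CPM in cow 756 and from 219685 to 157827 CPM in cow 782. In cow 3847 it went from 138923 to 57533 CPM. Endothelial markers (3 of 6 matched) had summed medians of 120, 136 and 129 CPM, and no fibre marker was at 0. The endothelial markers did not move together from LP to EL. *VWF* changed by 0.51 (SE 0.12, adjusted p = 0.000515), *CLDN5* by -0.39 (SE 0.12, adjusted p = 0.00412) and *TEK* by -0.04 (SE 0.12, adjusted p = 0.791, all edgeR). Adipocyte and hepatocyte markers had their highest medians at ML, as *SLC2A4* had. Adipocyte markers (3 of 6 matched) had summed medians of 6.23, 6.05 and 15.3 CPM with maxima of 35.7, 33.3 and 73.3 CPM at LP, EL and ML, and hepatocyte markers had medians of 2.98, 3.27 and 12.97 CPM with a maximum of 193 CPM at ML. The fat cell hormone gene *ADIPOQ* changed by -0.92 from LP to EL (SE 0.38, adjusted p = 0.0361) and by 1.48 from EL to ML (SE 0.38, adjusted p = 0.00107, both edgeR). The other matched adipocyte markers passed in neither step. *FABP4* had values of 0.41 (SE 0.36, adjusted p = 0.341) and 0.69 (SE 0.35, adjusted p = 0.0831). *CIDEC* had -0.33 (SE 0.45, adjusted p = 0.547) and 0.94 (SE 0.43, adjusted p = 0.0581, all edgeR). With a cow left out, no adipocyte marker passed from LP to EL in 7 of 16 fits. Fat cells also express *SLC2A4*, and the part of these cells in its values was not tested.

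Across cows at EL, *SLC2A4* and the summed fibre markers correlated with r = 0.64 (permutation p = 0.00756, adjusted p = 0.0858) and rho = 0.59 (permutation p = 0.0193, adjusted p = 0.270). Without the 2 cows farthest from the median of *SLC2A4*, r was 0.37. It was 0.42 within Fert+ and 0.81 within Fert- cows, and 0.66 without counting batch B. The medians of the summed fibre markers were higher in Fert+ cows, the same direction as *SLC2A4*. At EL they were 116693 CPM for Fert+ against 69515 CPM for Fert- animals (exact permutation p = 0.0218). At ML they were 245090 and 208361 CPM (exact permutation p = 0.0435), and at LP 203607 and 181040 CPM (exact permutation p = 0.201). These p-values were not adjusted, and the ranges of the genotypes overlapped at each time-point. The part of the fibre markers in the *SLC2A4* values was not tested.

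Relative to these markers, *SLC2A4* stood at medians of 46.3 per 100000 CPM of fibre markers at LP, 67.4 at EL and 65.3 at ML, and *SLC2A1* at medians of 1.35, 3.31 and 1.32. Within cows the marker sum changed by a mean log2 difference of -1.14 from LP to EL and was higher again at ML in 16 of 16 cows. Division by this sum raises every gene at EL by that much, so the values on this scale describe the markers as well as the transporters, and no test is read from them. The scale was chosen after the fall of the markers was seen.

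**Figure D3:**
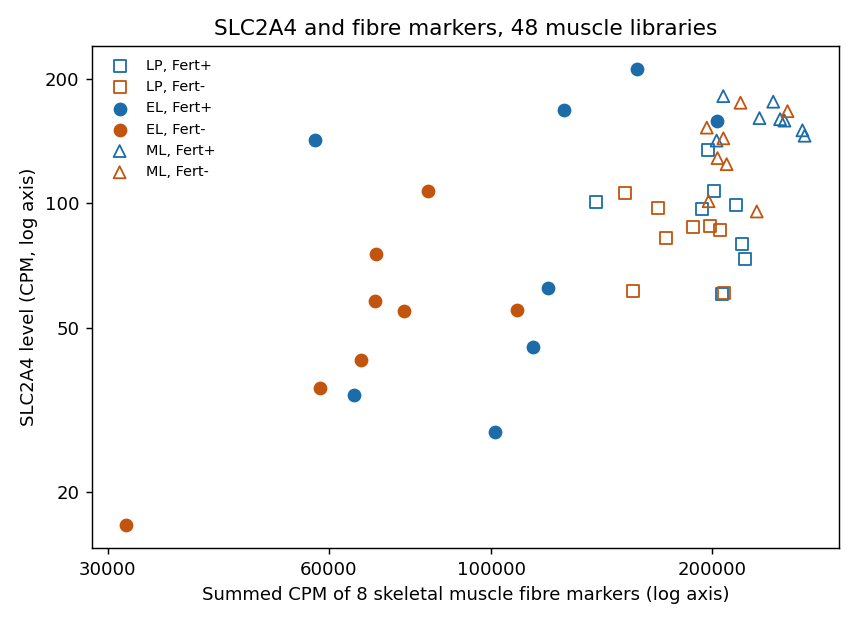
*SLC2A4* level (CPM, vertical log axis) against the summed CPM of 8 skeletal muscle fibre markers (horizontal log axis) in the 48 muscle libraries, by time-point (shape) and genotype (colour). The EL libraries spread from 31770 to 203329 CPM of fibre markers and from 16.6 to 212 CPM of *SLC2A4*, while the LP and ML libraries form narrower groups, none below 138923 CPM of fibre markers.

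In liver, *SLC2A1* was counted with 72 to 362 read pairs per library. Its level ran from 5.30 to 16.6 CPM at LP (median 7.92, mean 8.44 ± 2.76), from 5.78 to 17.9 CPM at EL (median 9.96, mean 10.5 ± 3.69) and from 6.53 to 12.3 CPM at ML (median 8.70, mean 8.72 ± 1.70). The ranges overlapped at all time-points. From LP to EL the log2 fold change was 0.31 (SE 0.13, adjusted p = 0.167, edgeR), in a comparison in which 2.48% of genes passed, 1.06% upwards and 1.42% downwards. That count, 332 genes, ran from 8 (without cow 782) to 1468 (without cow 426) when a single cow was left out. The level was higher at EL in 12 of 16 cows (exact permutation p = 0.0491, adjusted p = 0.117), and without counting batch B the exact p was 0.152. Without cow 426 the log2 fold change was 0.39 and passed (adjusted p = 0.0436, edgeR). The EL to ML change was -0.22 (SE 0.13, adjusted p = 0.163, where 42.3% of genes passed, 21.3% upwards), and from LP to ML it was 0.08 (SE 0.13, adjusted p = 0.715, where 15.4% passed, 8.84% upwards and 6.56% downwards).

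*SLC2A4* was counted at a low level in liver, with 8 to 61 read pairs per library. Its level ran from 0.670 to 1.89 CPM at LP (median 1.16), from 0.483 to 1.46 CPM at EL (median 0.878) and from 0.488 to 2.35 CPM at ML (median 1.53). The gene rose from EL to ML by 0.64 (SE 0.17, adjusted p = 0.00370, edgeR), or 1.56-fold, and in 13 of 16 cows (exact permutation p = 0.000854, adjusted p = 0.00342). The groups overlapped, with the lowest ML level (cow 782) close to the lowest EL level. From LP to EL it changed by -0.37 (SE 0.18, adjusted p = 0.216) and from LP to ML by 0.27 (SE 0.17, adjusted p = 0.298), and neither passed. Over all time-points together *SLC2A4* passed in liver (adjusted p = 0.0124, edgeR) and *SLC2A1* did not (adjusted p = 0.122), where 38.7% of genes did.

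The summed fibre markers of muscle stood at 8.96 to 39.3 CPM in the liver libraries, and their medians were 15.6, 15.3 and 18.97 CPM at LP, EL and ML. Most of this sum was *DES*, with means of 15.2, 14.9 and 18.6 CPM in liver. There *TTN* averaged 0.86 CPM or less and *ACTA1* 0.034 CPM or less. In muscle at LP *DES* averaged 7556 CPM, beside 41528 CPM of *ACTA1*. At the median ratio of *SLC2A4* to fibre markers measured in muscle, the marker sum of a liver library corresponded to 0.0237 CPM of *SLC2A4* or less. Set against the *SLC2A4* level of the same library, this amount was largest at EL, where it reached 2.04%, and it reached 1.25% at LP and 1.37% at ML. Because *DES* made up most of the sum in liver but not in muscle, these amounts do not estimate muscle tissue in liver. Adipocyte markers in liver (3 of 6 matched) had summed medians of 2.62, 2.03 and 1.79 CPM at LP, EL and ML, and no adipocyte marker other than *CIDEC* could be tested there. Endothelial markers (3 of 6 matched) had summed medians of 66.2, 68.9 and 96.5 CPM, with the highest at ML, as for *SLC2A4*. From EL to ML *TEK*, a receptor of endothelial cells, rose by 0.47 (SE 0.11, adjusted p = 0.00147) and *VWF*, von Willebrand factor, by 0.71 (SE 0.21, adjusted p = 0.00755, both edgeR), and *CLDN5* had a value of 0.41 (SE 0.18, adjusted p = 0.0715). The part of adipocytes and endothelial cells in the *SLC2A4* values was not tested.

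**Figure D4:**
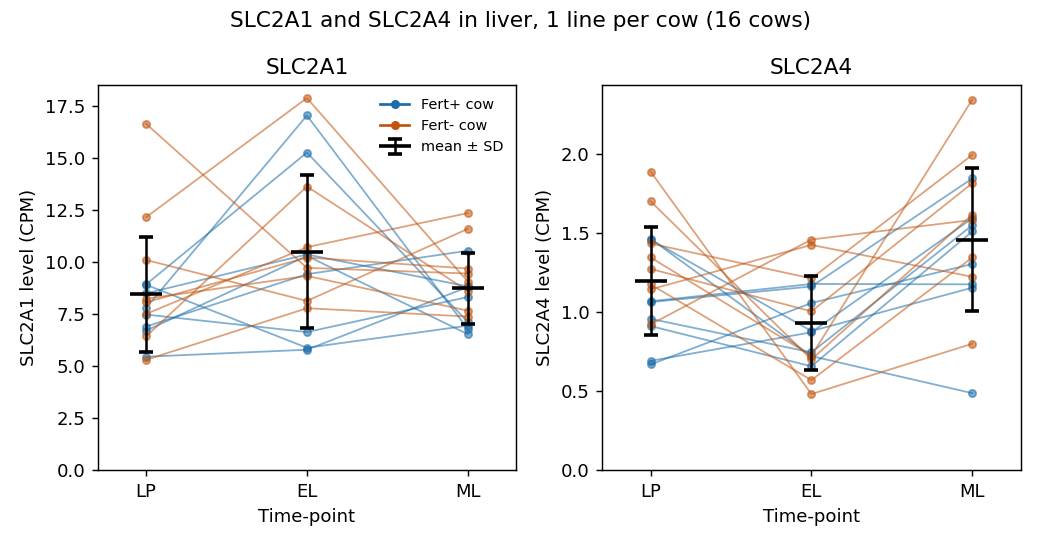
Levels of *SLC2A1* (left) and *SLC2A4* (right) in liver (CPM, vertical axes of different scale) at LP, EL and ML, with 1 line for each of 16 cows coloured by genotype and the mean ± SD in black. *SLC2A4* has its lowest mean, 0.930 CPM, at EL and its highest, 1.46 CPM, at ML.

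No genotype difference of either gene passed in liver, in comparisons in which 0.0% of genes passed. For *SLC2A4* Fert+ differed from Fert- by -0.38 (SE 0.20, adjusted p = 0.809, edgeR) at LP, by -0.07 (SE 0.25, adjusted p = 0.913) at EL and by -0.27 (SE 0.24, adjusted p = 0.669) at ML. The Fert+ cows had 0.670 to 1.47 CPM at LP and the Fert- cows 0.924 to 1.89 CPM (exact permutation p = 0.0496, adjusted p = 0.292 over 12 tests). For *SLC2A1* these differences were -0.30 (SE 0.19, adjusted p = 0.851), -0.12 (SE 0.24, adjusted p = 0.837) and -0.25 (SE 0.13, adjusted p = 0.431). Neither gene passed with the shared dispersion either, under which 2.38%, 2.31% and 2.11% of liver genes passed at LP, EL and ML.

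The tissues differed in both genes and in opposite directions. Within cows *SLC2A4* was lower in liver than in muscle by log2 differences of -6.34 at LP (SE 0.23), -6.39 at EL (SE 0.23) and -6.78 at ML (SE 0.23), which are 80.8-fold, 83.8-fold and 110.1-fold. *SLC2A1* was higher in liver by 1.54 (SE 0.19), 1.57 (SE 0.19) and 1.30 (SE 0.19), which are 2.91-fold, 2.96-fold and 2.47-fold. All of these passed in edgeR with adjusted p-values of 2.3e-09 or less, in comparisons in which 88.2%, 88.6% and 87.8% of genes passed, and the median of all genes was shifted by 0.13, 0.14 and 0.10. No liver library reached the lowest muscle library in *SLC2A4*. The change from LP to EL was not shown to differ between the tissues for *SLC2A4* (-0.05, SE 0.29, adjusted p = 0.926) or *SLC2A1* (0.02, SE 0.27, adjusted p = 0.972), where 27.6% of genes passed. The levels of *SLC2A1* in muscle and liver of a cow had r of 0.18 at LP, -0.23 at EL and 0.06 at ML over 16 cows (adjusted permutation p = 0.606, 0.606 and 0.883).

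Of 12 other sugar transporter genes looked for, symbols could be matched for *SLC2A3* and *SLC2A8*. *SLC2A8* encodes GLUT8, a transporter of intracellular membranes. In muscle it ran from 3.08 to 7.03 CPM at LP (median 5.80), from 6.26 to 20.9 CPM at EL (median 9.04) and from 2.95 to 10.8 CPM at ML (median 4.25). It rose by 0.96 from LP to EL (SE 0.14, adjusted p = 2.6e-07) and fell by 1.27 from EL to ML (SE 0.14, adjusted p = 8.7e-10, both edgeR), so its highest median was at EL. *SLC2A3* encodes GLUT3, a high-affinity transporter known from neurons and blood cells. It ran from 3.46 to 74.0 CPM over the 48 muscle libraries and passed in no muscle contrast (LP to EL -0.52, SE 0.40, adjusted p = 0.264).

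Symbols were known only for genes in the study's own tables, so 37 of 86 pathway genes could be looked up and the groups below are incomplete. Those tables include the study's lists of genes called between genotypes in these same libraries. The matched genes are therefore not a random draw, and their counts are not a test against the shares over all genes. Their counts stand beside 30.4% of all genes that rose and 27.9% that fell from LP to EL, 31.7% that rose and 31.9% that fell from EL to ML, and a median log2 fold change of all genes of 0.01 from LP to EL, so a change of a gene in either step was common. Of 13 genes of glucose phosphorylation and glycolysis tested in muscle, 11 fell and 1 rose from LP to EL, and 11 rose and 2 fell from EL to ML, with median log2 fold changes of -0.95 and 1.28. *PGAM2*, the phosphoglycerate mutase of muscle, changed by -1.90 (SE 0.19) and then 2.35 (SE 0.19), and *LDHA*, which makes lactate, by -1.84 (SE 0.21) and then 1.99 (SE 0.21). *PGK1* (-1.44, SE 0.16) and *GPI* (-1.11, SE 0.12), enzymes of the same path, fell from LP to EL too. The gene that rose was *PDK4*, an inhibitor of glucose oxidation (1.65), named here after its value was seen. The 11 that fell had values between -1.90 and -0.51, beside -0.36 for *SLC2A4*, which did not pass.

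Of 6 genes of glycogen turnover, 4 fell and 1 rose from LP to EL, and 5 of 6 passed where 58.3% of all genes did. The glycogen phosphorylase *PYGM* (-0.85, SE 0.10) and *PGM1* (-0.99, SE 0.13) fell, and *UGP2*, which makes the UDP-glucose used for glycogen, rose by 1.02 (SE 0.10). These 3 genes moved back from EL to ML. Of 5 matched genes of hepatic glucose output, 3 could be tested in muscle, and 2 fell and 0 rose from LP to EL. They were *PC*, a pyruvate carboxylase that also feeds the citrate cycle in muscle (-0.80, SE 0.16), and *FBP1*, a fructose bisphosphatase (-0.77, SE 0.31, adjusted p = 0.0319), while *PCK1* had a value of 0.67 (SE 0.39, adjusted p = 0.136). Levels in muscle were very low for *FBP1* (means of 0.661 CPM at LP and 0.385 CPM at EL) and *PCK1* (0.314 and 0.578 CPM). The call of *FBP1* was lost when cow 33, 164, 419 or 426 was left out, with an adjusted p of up to 0.0831 in edgeR, and with 2 of 3 genes passing the group was close to the share of all genes.

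Of 7 matched genes of insulin signalling and GLUT4 vesicle traffic, 4 rose and 2 fell from LP to EL, with a median log2 fold change of 0.16. *SORT1*, which encodes sortilin, a sorting protein of GLUT4 vesicles, rose by 2.06 (SE 0.21, adjusted p = 1.6e-09) and fell by 1.91 from EL to ML (SE 0.21). *PIK3R1*, a regulatory subunit of PI3-kinase, rose by 0.87 (SE 0.19) and fell by 0.65 (SE 0.19). *RHOQ*, a small GTPase linked to GLUT4 traffic, fell by 0.62 (SE 0.09) and rose by 0.61 (SE 0.09), and *RAB10* fell by 0.17 (SE 0.05). Of 4 regulators, 3 fell from LP to EL, beside 27.9% of all genes, namely the nuclear receptors *NR4A1* (-1.49, SE 0.26) and *NR4A3* (-1.28, SE 0.47) and the muscle AMPK subunit *PRKAG3* (-0.55, SE 0.15). The coactivator *PPARGC1A* had values of -0.02 (SE 0.32) and 0.04 (SE 0.31).

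**Figure D5:**
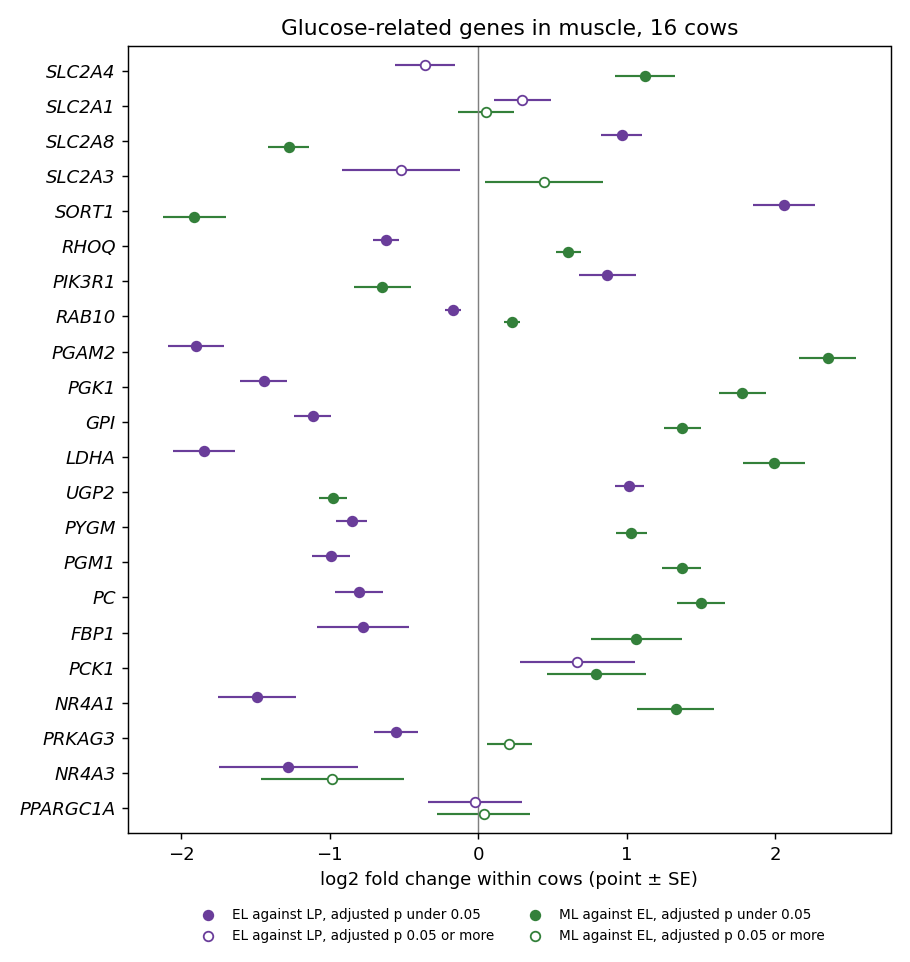
Log2 fold changes within 16 cows in muscle (horizontal axis, point ± SE) from LP to EL (purple) and from EL to ML (green) for *SLC2A4*, *SLC2A1* and the glucose-related genes named in the text (vertical axis). Filled points passed an adjusted p of 0.05 in edgeR. *SLC2A4* has an open point of -0.36 and a filled point of 1.12, and *SLC2A8*, *SORT1*, *PIK3R1* and *UGP2* run the other way.

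Among 12303 other muscle genes, the level of *SLC2A4* over the 48 libraries was most like that of *DNAJB5*, a heat shock protein cochaperone (r = 0.86). It was followed by the genes ENSBTAG00000017461 (r = 0.83) and ENSBTAG00000021132 (r = 0.80), for which no symbol was matched, by *LDB3*, a Z-disc protein (r = 0.80), and by *GOT1*, a cytosolic aspartate aminotransferase (r = 0.79). With the time-point means removed, *LMCD1* came first (r = 0.83) and *DNAJB5* (r = 0.79) and *LDB3* (r = 0.79) remained among the 5. *SLC2A1* was most like ENSBTAG00000003375 (r = 0.75), *AASS* (r = 0.64), *GNE* (r = 0.64) and *SLC20A2* (r = 0.64). Its r with *SLC2A4* was 0.40, which ranked 324 among those genes. These values are descriptions, since the libraries share cows, fibre content and depth.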

How the data were processed

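RNA from liver and semitendinosus biopsies was sequenced as paired-end poly(A) libraries. The deposited values are raw counts of read pairs per Ensembl gene, made by the authors with featureCounts from proper pairs (Samtools) of STAR alignments to the UMD_3.1 cattle genome, after low-quality read ends had been removed by Trimmomatic. The labels also name CASAVA 1.8. A further 96 columns of a whole-series table carried no sample names and were not used. Among 336 pairs of libraries, 0 were identical.

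Levels are CPM of library totals scaled by TMM factors over the 48 libraries of a tissue. Single-gene tests used log2(CPM + 1). Time contrasts used edgeR 4.0.16 (R 4.3.3) quasi-likelihood tests with TMM factors, a filter on low counts, robust estimation and the cow as a block, over 48 libraries per tissue. Genotype contrasts used 16 libraries. P-values were adjusted by Benjamini-Hochberg over all genes tested, with a threshold of 0.05. Exact two-sided sign-flip and permutation tests were run over cows with scipy 1.17.1, and permutation tests of correlations drew 100000 resamples. Scripts were tested on simulated data.

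Cow numbers in the sample titles pair the libraries of one animal. Deviations from group means correlated with a median r of 0.22 to 0.28 within cows and of -0.03 to -0.01 between cows. The members and gene lists were chosen with earlier results of these data known. Symbols came from the study's tables, which paired 2161 of the identifiers. Genes named were all matched sugar transporters, up to 4 genes of each other list with the smallest adjusted p from LP to EL in muscle, and the 5 genes most alike to each member. A gene that this rule names is not reported here. Alternatives were RLE factors, no gene filter, no robust estimation, counting batch as a term or left out, each genotype alone, no cow block, DESeq2 1.42.0, a shared dispersion, another pseudocount and each cow left out.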

Additional observations from a re-analysis of the deposited data

Results flagged for a closer look

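In liver at ML, Fert+ cow 782 stood apart from the other 7 Fert+ cows for *SLC2A4*, at 0.488 CPM (9 read pairs) against a group median of 1.41 CPM. Its gap to the nearest cow was 0.571 of the group's whole range, and it was 1 of 24 groups checked for a cow far from the rest, where chance marks about 1 in 20 groups.

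In muscle, the change of *SLC2A1* from LP to EL was flagged between genotypes on its unadjusted value (exact permutation p = 0.0357). Mean differences on the log2(CPM + 1) scale were 0.54 in Fert+ and -0.16 in Fert- cows. The change from EL to ML was flagged as well (unadjusted exact permutation p = 0.0368), with means of -0.32 and 0.43. Both had an adjusted p of 0.147 over 8 tests and did not pass, and both rest on the same EL libraries.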

How the results depend on the processing

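Among the members' log2 fold changes recomputed under other settings, each cow left out aside, 223 kept their direction and side of the threshold, 7 turned direction, 5 came to pass and 4 no longer passed. The 2.18-fold rise of *SLC2A4* from EL to ML in muscle kept its call under each edgeR and DESeq2 setting run. The causes of the changes below were not tested.

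Without the cow block, which pairs the libraries of an animal, *SLC2A1* from EL to ML in muscle was -0.089, its calving response in liver minus muscle was -0.074, and *PPARGC1A* was 0.64 and then -0.67. The block changed no other call of a member. Without counting batch B these values of *SLC2A1* were -0.0058 and -0.12, its exact liver LP to EL difference was 0.22 (permutation p = 0.152), and that of *SLC2A4* was -0.26 (exact permutation p = 0.0376). The genotype difference of *SLC2A4* in liver was then 0.14 at EL in edgeR, and 0.091 at EL and -0.16 at LP in the exact test. With a pseudocount of 0.1 it was 0.0097 at EL.

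In Fert+ cows alone, with fewer libraries, *SLC2A1* in muscle was 0.76 from LP to EL (adjusted p = 0.0471, edgeR) and -0.46 from EL to ML. In Fert- cows alone it was -0.20 and 0.57 (adjusted p = 0.00418 for the latter). *SLC2A4* in muscle from LP to EL was -0.69 in Fert- cows (adjusted p = 0.0125). In these muscle fits 4823 of 12235 genes passed from LP to EL in Fert+ cows. In Fert- cows 5576 of 12329 genes passed from LP to EL and 6345 from EL to ML. The matching genotype by time-point interactions did not pass (adjusted p = 0.264 and 0.327 for *SLC2A1* and 0.527 for *SLC2A4*, edgeR). The LP to ML rise of *SLC2A4* in muscle was 0.81 in Fert+ and 0.71 in Fert- cows, and its liver rise from EL to ML 0.53 and 0.74, with none of these passing. *PRKAG3* from EL to ML was -0.31 and *PPARGC1A* 0.49 and then -0.43 in Fert+ cows, and *SLC2A3* from LP to EL was 0.22 in Fert- cows. With a shared dispersion the genotype differences at EL in muscle were 0.93 for *SLC2A4* and 0.82 for *SLC2A1*, and both passed. Relative to the fibre markers *SLC2A1* was 1.36 (LP to EL), -1.28 (EL to ML) and 0.083 (LP to ML), with a genotype difference of -0.090 at EL, and *SLC2A4* was 0.70 and -0.21. The marker sum itself fell by 1.14 and rose again, which moves every gene on that scale, so these values are not read as tests of the transporters.

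With each cow left out in edgeR, *SLC2A1* ranged from -0.015 to 0.21 (muscle, EL to ML) and from 0.24 to 0.39 (liver, LP to EL), and *SLC2A4* from -0.49 to -0.29 (muscle, LP to EL). The liver genotype differences at EL ranged from -0.27 to 0.015 for *SLC2A1* and from -0.18 to 0.047 for *SLC2A4*. *PPARGC1A* ranged from -0.30 to 0.12 and from -0.093 to 0.30. In the exact tests *SLC2A4* ranged from -0.56 to -0.34 (muscle, LP to EL), from -0.22 to -0.14 (liver, LP to EL) and from 0.12 to 0.21 (liver, LP to ML), and *SLC2A1* from 0.22 to 0.33 (liver, LP to EL). Exact genotype differences of *SLC2A4* ranged from 0.18 to 0.31 (muscle ML), from -0.26 to -0.17 (liver LP) and from -0.064 to 0.041 (liver EL), and of *SLC2A1* from -0.27 to -0.17 (liver ML).

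The number of genes passing moved more widely. In liver from LP to EL it was 332 (8 to 1468 with a cow left out), and 193 without the gene filter, 889 with DESeq2, 735 in Fert+ cows and 0 in Fert- cows or without counting batch B (610 and 1600 at an unadjusted p under 0.05). In muscle from LP to ML it was 1120, and 289 in Fert+ and 181 in Fert- cows. In liver it was 5672 from EL to ML and 818 in Fert- cows, and 2065 from LP to ML, 39 in Fert+ and 957 in Fert- cows. Between genotypes in muscle at EL it was 1, and 438 with a shared dispersion, 123 with DESeq2 and 564 with 48 libraries in one fit. At LP and ML in muscle and at LP, EL and ML in liver it was 0 with edgeR's quasi-likelihood test (800, 918, 842, 1530 and 1640 at an unadjusted p under 0.05), 214, 214, 306, 301 and 279 with a shared dispersion and 26, 11, 2, 13 and 63 with DESeq2, and 362 in liver at EL with 48 libraries in one fit.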
